A study of Mus musculus with 12 samples.

Results

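The genes described here are the mouse solute carriers, membrane proteins that move amino acids, sugars, lactate, metal ions, nucleosides and other small molecules across the cell surface and the membranes of organelles. Members were the rows of the deposited table whose symbol has the form Slc, number, a, number, and whose FPKM (reads per gene scaled to exon length and library size) was at least 1 in at least 2 of the 12 libraries. This gave 156 members among 350 rows with such a name, 11922 genes that passed the same filter and 52635 genes in all. The members were chosen by these measured FPKM levels, so their levels are given as a description. By symbol, 150 members are carriers. The other 6 only share the name: the scaffold protein gene Slc9a3r1, Slc4a1ap, Slc7a6os, Slc36a3os, Slc2a4rg-ps and Slc39a1-ps.

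The RNA came from CD4 T cells of C57BL/6 mice, isolated as naive cells at over 95% purity and activated for 24 h through CD3 and CD28. All groups shared a medium made with charcoal-stripped serum, which is poor in retinoids. It held IL-6 at 20 ng/mL and TGF-β1 and TNFα each at 5 ng/mL, while IL-23, IL-21 and IL-1β were each present at 10 ng/mL. IFNγ and IL-4 were blocked with antibodies, each at 10 µg/mL. The cells came from mice labelled as WT (wild type), as RARα KO or as RARα TG, 3 genotypes, and were left without retinoic acid (RA, 0 nM) or given 10 nM RA for the 24 h, with 2 libraries in each of the 6 groups. RA is the active derivative of vitamin A and binds the nuclear receptor RARα, the product of Rara. The KO allele, the promoter of the TG construct, the age of the mice and the origin of the 2 libraries of a group are not stated in the labels. P-values therefore measure the spread between these libraries, and the labels do not state whether that spread is technical or between mice. In TG the libraries of a dose differed in sex. The summed FPKM of dendritic-cell and class II markers also differed between libraries of a group. It was 23.7 and 157 in untreated WT and 26.5 and 73.2 in untreated KO.

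Solute carriers set which nutrients a cell can take up. Activated T cells raise the uptake of large neutral amino acids through the heterodimer of Slc7a5 and Slc3a2, of glutamine and small neutral amino acids through Slc1a5 and the Slc38 family, and of glucose through Slc2a1 and Slc2a3. They export lactate through Slc16a1 and Slc16a3 and take in iron and zinc through the Slc11 and Slc39 families. Magnesium moves through the Slc41 family and nucleosides through the Slc29 family. The Slc25 family works mainly in the inner mitochondrial membrane, where it carries ADP, ATP, phosphate and cofactors.

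Library depth, read from the step that a single read makes in low genes, was 16289969 to 25534588 reads. All 8 T-cell markers listed were detected, with a summed FPKM of 996 to 1482. Rara read 16.5 and 18.9 FPKM in untreated WT, and RA brought 12.3 and 14.2. The KO label went with 19.5 and 19.3 FPKM at 0 nM and 16.8 and 17.6 at 10 nM. Rara was thus not lower there than in WT, and these libraries are called KO-labelled. In TG, Rara read 72.8 and 63.3 FPKM at 0 nM and 126 and 119 at 10 nM. Sex-linked transcripts placed WT as male, the KO-labelled libraries as female and TG as 1 male and 1 female at each dose, so genotype and sex cannot be told apart in KO-labelled against WT. The summed B-cell markers, mostly Ighm, were 32.3 and 35.2 FPKM in untreated TG, 112 and 111 in TG given RA, and 29.98 to 136 over all libraries. The dendritic-cell and class II sum was 23.7 to 165 FPKM and higher in replicate 2 of all 6 groups. Macrophage markers summed to 3.66 to 19.8 FPKM, and NK, CD8, erythroid and granulocyte lists to at most 4.18; no marker of these lists was at 0 in every library. In bulk RNA, fewer cells of a type and less RNA per cell cannot be told apart.

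Promoter sequences are shown for 4 members, chosen after their values were seen, to let a reader set the responses below beside the bases before a start site. RefSeq windows on GRCm38.p6, from 250 bases before to 50 bases after a start, matched 114 of the 156 members by symbol and gave 150 of 32851 windows. Both strands were searched. Capitals mark AGNTCA, with N any base, and CACGTG, the E-box bound by factors of the Myc and Tfe families. AGNTCA is a loose form of AGGTCA, a half-site bound by retinoid receptors. Any match to it is called a half-site here, also where it differs from AGGTCA, as AGATCA does. A half-site can share its last bases with an E-box, as in the window of Slc20a1, which is not printed. That window has half-sites at positions -108 and -26 and E-boxes at -175 and -22. Slc20a1 rose with RA in TG (0.36, limma adjusted p = 0.0125). For Slc29a1, Slc39a8 and Slc20a1, which have several listed starts, the window taken was the first with an E-box. Their E-boxes were thus a condition of the choice. Each run printed is the 250 bases before the start, 5′ to 3′ on the gene's strand.
Slc12a4, potassium and chloride cotransporter, chr8:105966116-105966365, minus strand, risen with RA in all 3 genotypes, with neither motif: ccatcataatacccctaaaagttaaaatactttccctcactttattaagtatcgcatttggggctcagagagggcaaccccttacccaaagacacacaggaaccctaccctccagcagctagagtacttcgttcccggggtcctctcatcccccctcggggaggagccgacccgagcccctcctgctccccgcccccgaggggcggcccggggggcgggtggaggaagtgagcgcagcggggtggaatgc
Slc29a1, nucleoside carrier, chr17:45595247-45595496, minus strand, 1 of 8 listed starts, higher with RA in WT and TG, with an E-box at position -75: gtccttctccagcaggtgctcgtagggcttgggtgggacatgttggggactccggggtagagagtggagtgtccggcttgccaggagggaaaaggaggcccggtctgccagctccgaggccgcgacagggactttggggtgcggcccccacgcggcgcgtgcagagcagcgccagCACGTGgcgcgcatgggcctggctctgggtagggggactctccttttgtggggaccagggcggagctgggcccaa
Slc16a1, lactate carrier, chr3:104638414-104638663, plus strand, not past the threshold with RA in any genotype, with an E-box at position -200: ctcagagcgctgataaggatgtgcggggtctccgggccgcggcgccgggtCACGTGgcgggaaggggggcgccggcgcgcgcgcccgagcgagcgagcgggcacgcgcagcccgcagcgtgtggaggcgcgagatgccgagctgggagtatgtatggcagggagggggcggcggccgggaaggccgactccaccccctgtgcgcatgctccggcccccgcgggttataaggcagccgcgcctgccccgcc
Slc39a8, zinc and manganese carrier, chr3:135825407-135825656, plus strand, 1 of 2 listed starts, lower with RA in TG, with half-sites at positions -234, -96 and -7 and an E-box at -71: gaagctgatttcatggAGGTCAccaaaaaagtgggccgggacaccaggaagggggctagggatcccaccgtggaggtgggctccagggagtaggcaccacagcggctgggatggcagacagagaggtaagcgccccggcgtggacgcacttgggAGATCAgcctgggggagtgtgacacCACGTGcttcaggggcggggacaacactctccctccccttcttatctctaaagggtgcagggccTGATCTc
Direct repeats of AGNTCA spaced by 5, 2 or 1 bases (the arrangements of retinoid response elements) were found in 0 of 150 member windows, against 0.204%, 0.107% and 0.219% of all windows. A single AGNTCA was found in 38.0% of member windows and 46.6% of all. CACGTG was found in 25 member windows, 16.7%, against 7.15% of all windows. Member windows had a median GC content of 61.8% and all windows 52.4%. The amino-acid response core TGATGNAA was in 2.0% of member windows and 3.97% of all. The metal response cores TGCGCNC and TGCACNC were in 24.0% and 15.3% of member windows and 15.4% and 12.6% of all. A match is a description of letters in this window only.

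Levels spanned more than 2 orders of magnitude. Of the 156 members, 141 reached 1 FPKM in all 12 libraries, 53 reached 10 FPKM in all 12, and 55 had a median below 5 FPKM. The median over the members' medians was 7.83 FPKM, against 8.77 over all 11922 tested genes. The highest were the mitochondrial ADP/ATP carriers Slc25a5 and Slc25a4, with medians of 191 and 112 FPKM (lowest to highest 159 to 208 and 102 to 145), and the phosphate carrier Slc25a3 at 91.4. Slc25a5 has many near-identical pseudogenes, so its level is uncertain. At the cell surface the order began with the glutamine and neutral amino acid exchanger Slc1a5 at a median of 79.0 FPKM (76.9 to 84.3) and the glutamine carrier Slc38a2 at 72.6 (68.5 to 79.3). Slc7a5 at 61.1 (44.7 to 97.1), Slc29a1 at 60.9 (47.9 to 68.2), Slc38a1 at 48.1 (41.4 to 56.0) and Slc16a1 at 46.7 (43.3 to 54.5) followed, and these last 4 neighbours overlapped in range. Slc2a1, the main glucose carrier of the T-cell surface, ranged from 28.8 to 41.5 FPKM.

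The share of named carriers that passed the filter differed between classes. Members made up 21 of 54 amino-acid carriers by name, 12 of 29 sugar carriers, 4 of 14 monocarboxylate carriers, 22 of 32 metal carriers, 5 of 8 nucleoside carriers and 36 of 47 mitochondrial carriers. In all, 194 rows stayed below the filter and 64 were listed at 0 in every library. Among the latter were Slc40a1, the cell's iron exporter, and the concentrative nucleoside carrier Slc28a3. The cystine carrier Slc7a11 was at 0.0332 to 0.414 FPKM and the insulin-responsive glucose carrier Slc2a4 at 0.0159 to 0.260. Just inside the filter, by the second-highest library, were Slc22a15 at 1.10 FPKM, Slc38a9 at 1.19, Slc25a35 at 1.21, Slc14a1 at 1.22 and Slc7a4 at 1.32. Just outside were Slc27a6 at 0.959, Slc34a3 at 0.953, Slc25a53 at 0.807, Slc52a3 at 0.782 and Slc16a5 at 0.764. Slc7a4 passed through TG without RA alone (1.60 and 1.32 FPKM), so it had to differ there.

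**Figure D1:**
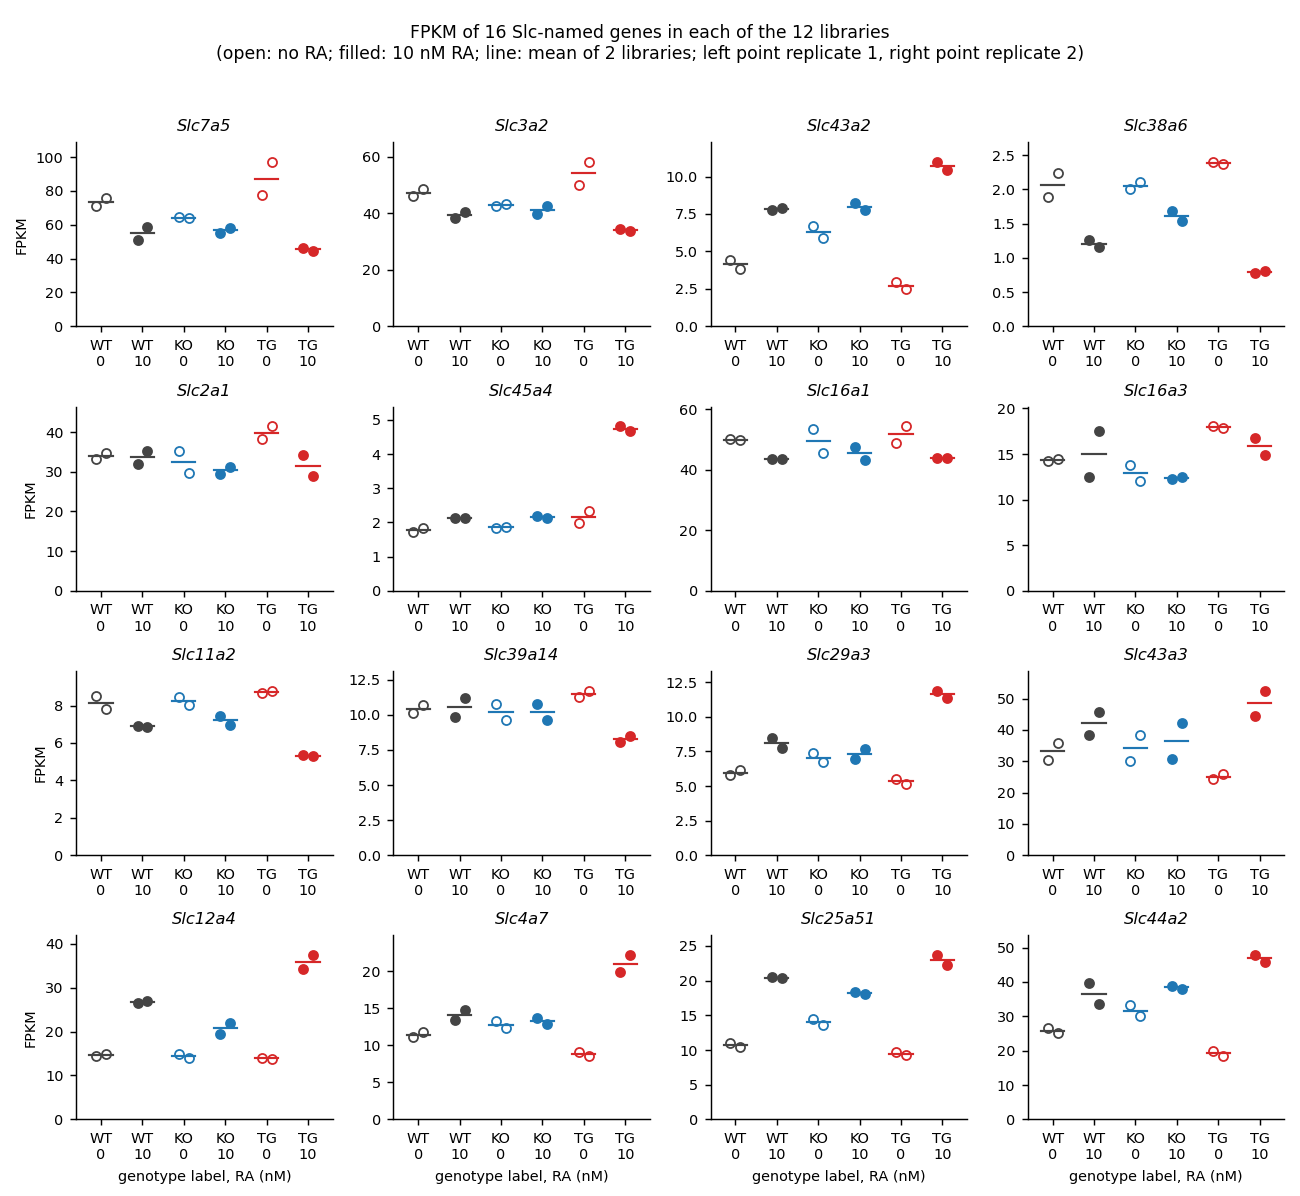
FPKM (vertical axes, from 0) of 16 members in each library, with the genotype label and RA dose in nM on the horizontal axes; points are libraries and lines are means of 2. Slc43a2 runs from 2.94 and 2.49 in untreated TG to 10.98 and 10.5 with RA, while Slc7a5 moves the other way, from 77.5 and 97.1 to 46.3 and 44.7.

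RA changed few members in WT, 1 in the KO-labelled cells and many in TG. A gene is said to have risen, fallen or been called where its limma p-value, adjusted over all tested genes, was under 0.05; the differences are log2 fold changes of FPKM + 1. In WT 13 members rose and 5 fell, 11.5% of 156, while 10.1% of all tested genes were called (6.67% rose and 3.47% fell). With upper-quartile scaling 12 members rose and 7 fell in WT, and the split over all genes moved from 795 rises and 414 falls to 667 and 554. In TG 37 members rose and 37 fell, 47.4%, against 39.1% of all genes (19.7% rose and 19.4% fell). In the KO-labelled cells only Slc12a4 rose, where 0.143% of all genes were called (0.134% rose and 0.00839% fell), and 24 of 156 members and 1280 of 11922 tested genes had an unadjusted p under 0.05. The median difference over the members was 0.06 in WT, 0.05 in KO-labelled and 0.01 in TG, beside 0.02, 0.01 and -0.02 over all genes. The libraries of the 2 doses did not overlap for 95 members in WT, 78 in KO-labelled and 128 in TG, where 53.8%, 42.3% and 71.1% of all genes did not overlap. Among the 141 members at or above 1 FPKM everywhere, 15 were called in WT and 63 in TG. The B-cell marker sum given above moved with RA in TG, and its part in these differences was not tested.

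The WT and TG comparisons share no library, but both used the same estimate of spread per gene, taken from all 12 libraries. Their calls are therefore not independent, and the same overlap over all tested genes is not given here. All 18 members called in WT were also called in TG in the same direction, 100% of the WT calls and 24.3% of the TG calls, and 17 of them differed more in TG. Of all tested genes 39.1% were called in TG. The 18 include Slc14a1, which reached 1 FPKM only in WT and TG libraries with RA, so its agreement was favoured by the filter. All 18 had the same sign in the KO-labelled cells, where 17 missed the threshold. Of the 74 TG calls, 68 had the same sign in WT. Leaving out 1 WT library at a time left 7 calls without replicate 1 at 0 nM, 4 without replicate 2 at 0 nM, 5 without replicate 1 at 10 nM and 15 without replicate 2 at 10 nM. Slc12a4, Slc25a51 and Slc43a2 were the 3 called in WT whichever library was left out. Slc25a40, Slc29a1, Slc37a2 and Slc39a6 were lost without any 1 library, and Slc44a2 was lost only without replicate 2 at 0 nM (0.44). Slc7a5 was lost without either library at 0 nM (-0.46 and -0.37) or replicate 1 at 10 nM (-0.32), and the same 3 libraries decided Slc29a3 (0.33 to 0.42), Slc25a17 (0.22 to 0.27), Slc48a1 (0.30 to 0.41), Slc14a1 (0.50 to 0.55) and Slc9a3r1 (0.21 to 0.32). Slc41a1 was lost without replicate 2 at 0 nM (0.28) or replicate 1 at 10 nM (0.32), Slc4a1ap without replicate 1 of either dose, and Slc38a6 without any library but replicate 1 at 0 nM (-0.39 to -0.50). All 18 kept their sign each time. In TG 52 to 62 members were called with 1 library left out, and 46 of the 74 were called each time.

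**Figure D2:**
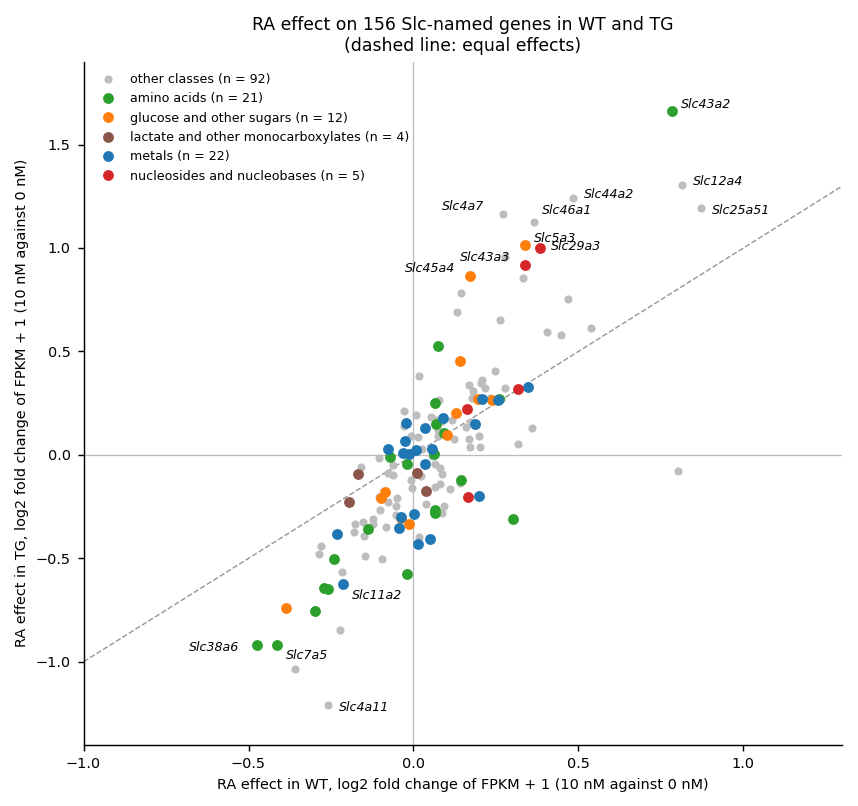
RA effect as log2 fold change of FPKM + 1 in WT (horizontal axis) and TG (vertical axis) for the 156 members, each a point coloured by substrate class; the dashed line marks equal effects. Slc43a2 lies highest at 1.66 in TG, Slc4a11 lowest at -1.21, and the amino-acid carriers Slc7a5 and Slc38a6 lie at -0.92 in TG; the isolated grey point near 0.80 in WT is the pseudogene Slc39a1-ps, which was not called.

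Amino-acid carriers moved in both directions. Over all tested genes 19.7% rose and 19.4% fell in TG, and 6.67% rose and 3.47% fell in WT. These shares are the background for each class below. With RA in TG, 3 of the 21 amino-acid carriers rose and 9 fell, with a median difference of -0.26. In WT 1 rose and 2 fell, with a median of 0.06, and in the KO-labelled cells 0 were called. The WT median was -0.0031 without replicate 1 at 0 nM and -0.0012 without replicate 2 at 10 nM, and 0 fell in WT without replicate 2 at 0 nM or replicate 1 at 10 nM. In TG 6 fell without replicate 1 at 10 nM. Of the 9 amino-acid carriers with the highest medians, Slc7a5, Slc3a2, Slc38a1 and Slc7a1 fell in TG, Slc6a6 rose, and Slc1a5, Slc38a2, Slc7a6 and Slc38a10 were not called.

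Slc7a5, the catalytic subunit of the large neutral amino acid exchanger (chr8:121881150-121907694 on GRCm38), read 71.0 and 75.7 FPKM in untreated WT, against 51.2 and 58.5 after RA. KO-labelled libraries went from 64.7 and 63.7 to 55.3 and 58.2 FPKM, and TG from 77.5 and 97.1 to 46.3 and 44.7. In each genotype both RA libraries were below both libraries without RA. The difference was -0.41 ± 0.10 (SE) in WT (limma adjusted p = 0.0376) and -0.92 ± 0.10 in TG (limma adjusted p = 0.000193), and -0.18 in the KO-labelled cells, which was not called. Slc3a2, the heavy chain that brings Slc7a5 to the surface, followed the same order. It went from 46.2 and 48.6 to 38.3 and 40.6 FPKM in WT and from 50.2 and 58.3 to 34.6 and 33.7 in TG. Its groups did not overlap in either genotype, but only TG passed the test (-0.65 ± 0.07, limma adjusted p = 0.000196), with -0.26 and an adjusted p of 0.0566 by limma in WT.

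Slc43a2, which lets large neutral amino acids pass without exchange (chr11:75531694-75577575), went the opposite way. RA took it from 4.43 and 3.84 to 7.78 and 7.87 FPKM in WT. The KO-labelled libraries went from 6.69 and 5.90 to 8.24 and 7.74. In TG it went from 2.94 and 2.49 to 10.98 and 10.5 FPKM. TG thus held both the lowest and the highest libraries. The rise was 0.78 ± 0.09 in WT (limma adjusted p = 0.00146) and 1.66 ± 0.09 in TG (limma adjusted p = 2.57e-06), the largest rise of any member in TG, and 0.30 in the KO-labelled cells, which was not called. Its relative Slc43a1 rose in TG from 1.52 and 1.49 to 2.48 and 2.73 FPKM (0.52 ± 0.11, limma adjusted p = 0.00515). In WT its difference was 0.07, and the difference between the 2 effects (0.45) was not called (limma adjusted p = 0.125).

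Other amino-acid carriers were also called with RA in TG. Slc38a6, a Slc38 family member, went from 2.40 and 2.37 to 0.772 and 0.804 FPKM in TG, and fell by 0.92 there and by 0.47 in WT (limma adjusted p = 8.01e-05 and 0.0138). Slc7a1, the main importer of arginine and lysine, fell in TG from 28.5 and 28.2 to 19.1 and 20.3 FPKM, and Slc38a1 from 56.0 and 50.8 to 41.5 and 41.4. The differences were -0.50 ± 0.08 and -0.36 ± 0.05 (limma adjusted p = 0.00171 and 0.000949). The glycine carrier Slc6a9 went from 3.05 and 3.53 to 1.79 and 1.68 FPKM and fell by 0.64. Slc7a3, a second arginine carrier, went from 3.09 and 5.20 to 1.70 and 2.31 and fell by 0.75, but it was not called in TG without replicate 2 at 0 nM (-0.45) or without replicate 1 at 10 nM (-0.61). Slc36a1 and Slc7a4 also fell in TG, calls lost without any 1 TG library for Slc36a1 (-0.26 to -0.27) and without replicate 1 of either dose for Slc7a4 (-0.49 and -0.51). Slc7a4 was a member only through its level in untreated TG, so its fall there was favoured by the filter. The taurine carrier Slc6a6 rose there from 27.8 and 27.0 to 32.3 and 33.2 FPKM (0.25 ± 0.07), a call lost without replicate 2 at 0 nM (0.23) or either library at 10 nM (0.27 and 0.23).

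Slc1a5 was among the steadiest members at high level. Its differences with RA were 0.06 ± 0.05 in WT, 0.06 ± 0.05 in the KO-labelled cells and 0.00 ± 0.05 in TG. Those of Slc38a2 were -0.07, 0.05 and -0.01, each ± 0.06, and those of the exchanger Slc7a6 were -0.02, 0.02 and -0.04, each ± 0.04. The summed FPKM of the 21 carriers went from 514 and 547 to 445 and 454 in TG and from 486 and 505 to 465 and 478 in WT.

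**Figure D3:**
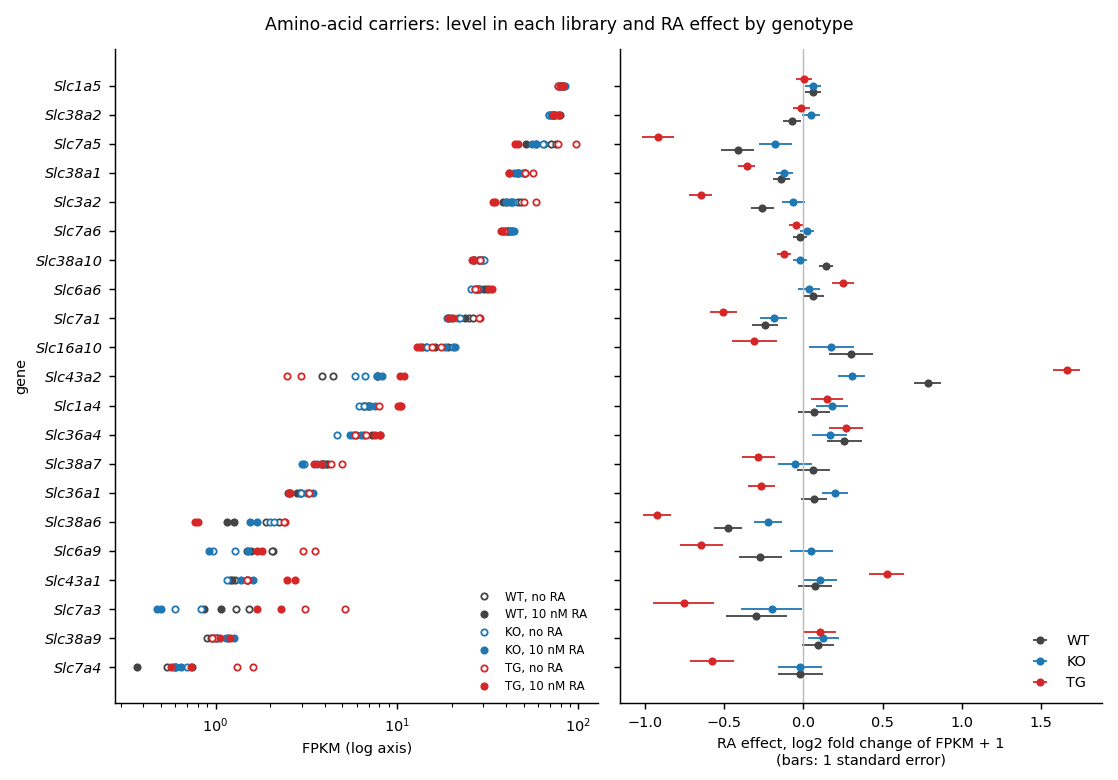
The 21 amino-acid carriers ordered by median level: FPKM of each library on a log axis (left) and RA effect as log2 fold change of FPKM + 1 with 1 standard error (right) for WT, KO-labelled and TG. Slc1a5 and Slc38a2 sit near 0 in all 3 genotypes, Slc7a5, Slc3a2 and Slc38a6 lie to the left in TG, and Slc43a2 lies far to the right.

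Most enzymes of amino-acid synthesis and use that were listed beside the carriers fell with RA in TG. Over all tested genes 19.7% rose and 19.4% fell in TG and 6.67% rose and 3.47% fell in WT, the background for each list of pathway genes. Of 22 tested, 1 rose and 18 fell in TG (median -0.47), 0 rose and 6 fell in WT (median -0.20) and 0 were called in the KO-labelled cells. Odc1, which starts polyamine synthesis from ornithine, went from 104 and 100 to 73.8 and 72.5 FPKM in WT and from 115 and 111 to 50.4 and 45.6 in TG. The serine-synthesis enzyme Psat1 went from 83.9 and 88.1 to 58.7 and 64.1 FPKM in WT and from 93.5 and 115 to 55.9 and 55.7 in TG. Both fell in WT and TG. Among 9 genes of amino-acid sensing, 3 rose and 4 fell in TG. The lysosomal GTPase Rragd rose from 10.6 and 11.2 to 37.8 and 41.4 FPKM in TG and from 10.1 and 9.44 to 16.7 and 16.2 in WT. Atf4, a transcription factor of the amino-acid response, went from 226 and 282 to 185 and 175 FPKM in TG and fell there.

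Among the 12 sugar carriers 3 rose and 3 fell with RA in TG, and 1 fell in WT. Of all tested genes 19.7% rose and 19.4% fell in TG, and 3.47% fell in WT. Slc2a1 went from 33.3 and 34.7 to 32.0 and 35.3 FPKM in WT, groups that overlapped. In TG it went from 38.2 and 41.5 to 34.1 and 28.8 FPKM and fell by 0.33 (± 0.10, limma adjusted p = 0.0297). That call was lost without replicate 2 at 0 nM (-0.28) or replicate 2 at 10 nM (-0.22). Slc2a3, a glucose carrier of high affinity, was not called with RA in any genotype (-0.09 in WT, 0.03 in KO-labelled and -0.18 in TG). Slc37a2, a sugar phosphate exchanger of the endoplasmic reticulum, fell in both WT and TG. It went from 1.47 and 1.56 to 0.958 and 0.887 FPKM in WT and from 1.54 and 1.56 to 0.529 and 0.527 in TG. The differences were -0.39 ± 0.09 and -0.74 ± 0.09 (limma adjusted p = 0.0333 and 0.000357).

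Slc45a4 and Slc5a3 rose most among the sugar carriers. Slc45a4 read 1.71 to 2.33 FPKM in the 10 libraries outside TG with RA and 4.81 and 4.67 there. Its rise of 0.86 ± 0.08 in TG (limma adjusted p = 5.21e-05) stood beside 0.17 in WT and 0.15 in KO-labelled. Slc5a3, which imports the osmolyte myo-inositol, went from 6.62 and 5.32 to 11.5 and 14.7 FPKM in TG (1.01 ± 0.12, limma adjusted p = 0.000308), and from 7.32 and 7.70 to 9.65 and 9.84 in WT, where it was not called. The glucose-6-phosphate carrier Slc37a4 fell by 0.30 in TG and its relative Slc37a1 rose by 0.26. Both calls were lost without at least 1 TG library (Slc37a4 at -0.29 to -0.32 without TG 0 nM replicate 2, TG 10 nM replicate 1 or TG 10 nM replicate 2, and Slc37a1 at 0.24 and 0.23 without TG 0 nM replicate 2 or TG 10 nM replicate 1).

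No lactate carrier was called with RA. Slc16a1 went from 50.1 and 49.9 to 43.7 and 43.5 FPKM in WT, from 53.7 and 45.7 to 47.6 and 43.3 in the KO-labelled cells, and from 49.0 and 54.5 to 43.9 and 43.9 in TG. Groups did not overlap in WT or TG, yet the differences (-0.19 ± 0.08 and -0.23 ± 0.08) had limma adjusted p-values of 0.174 and 0.0529. In TG Slc16a1 fell past the threshold with upper-quartile scaling (-0.25), by limma voom on recovered reads (-0.23) and without replicate 1 at 0 nM (-0.30). The exporter Slc16a3 went from 18.0 and 17.9 to 16.7 and 14.9 FPKM in TG (-0.17 ± 0.13). Slc16a6 (-0.17, -0.13 and -0.09 in WT, KO-labelled and TG) and Slc16a13 (0.01, -0.18 and -0.09) were not called either.

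Glycolytic and lactate genes were listed beside these carriers. Of 16 tested, 3 rose and 10 fell with RA in TG (median -0.35), and 1 rose and 1 fell in WT, beside 19.7% and 19.4% of all genes in TG and 6.67% and 3.47% in WT. Ldha, which makes lactate from pyruvate, went from 619 and 632 to 509 and 469 FPKM in TG and fell. Bsg, the chaperone that brings Slc16a1 and Slc16a3 to the surface, went from 167 and 163 to 134 and 131 FPKM in TG and fell by 0.31. Hk2, a hexokinase, rose in both genotypes, from 17.2 and 19.2 to 24.2 and 33.5 FPKM in WT and from 21.3 and 24.6 to 37.6 and 40.4 in TG.

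Among the 22 metal carriers 6 fell and 3 rose with RA in TG, where 19.4% of all tested genes fell and 19.7% rose. The median difference of these carriers was 0.02. Without replicate 2 at 0 nM or replicate 1 at 10 nM, 3 fell and the median was -0.03 and -0.05. Without replicate 1 at 0 nM or replicate 2 at 10 nM, 1 rose. In WT 1 rose and 1 fell, beside 6.67% and 3.47% of all tested genes. Slc11a2, the importer of ferrous iron, went from 8.49 and 7.82 to 6.92 and 6.87 FPKM in WT and from 8.68 and 8.80 to 5.36 and 5.28 in TG. It fell by 0.62 in TG (± 0.06, limma adjusted p = 6.37e-05) and missed the threshold in WT (-0.21, limma adjusted p = 0.0519). Slc39a14, which carries zinc, iron and manganese, went from 11.3 and 11.7 to 8.03 and 8.53 FPKM in TG and fell by 0.43 (± 0.08), with 0.01 in WT and 0.00 in KO-labelled.

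The zinc importer Slc39a6 fell in WT, from 20.5 and 19.8 to 17.2 and 16.8 FPKM, and in TG, from 20.5 and 22.3 to 16.3 and 15.99. Slc39a8, whose promoter is shown above, went from 24.4 and 25.2 to 17.5 and 21.1 FPKM in TG and fell by 0.35, a call lost without replicate 1 at 10 nM (-0.23) or either library at 0 nM (-0.38 and -0.33). The zinc exporter Slc30a1 fell by 0.29 in TG, where it read 2.20 and 2.55 and then 1.68 and 1.85 FPKM, and that call was lost without replicate 2 at 0 nM (-0.21) or either library at 10 nM (-0.24 and -0.33). Slc41a1, a magnesium carrier, rose by 0.35 in WT and 0.33 in TG, each ± 0.06, with 22.9 and 20.9 and then 28.6 and 27.6 FPKM in WT and 21.6 and 20.1 and then 26.7 and 26.2 in TG. Slc39a10 (-0.03, -0.02 and 0.01 in WT, KO-labelled and TG) and the copper importer Slc31a1 (-0.01, -0.09 and 0.00) were not called. Of 11 listed genes of metal storage and sensing, 3 fell in TG, namely the ferritin gene Fth1 (632 and 634 to 403 and 437 FPKM), Hmox1 and Mtf1, and 0 were called in WT. Tfrc, the transferrin receptor, read 167 and 186 FPKM without and 178 and 198 with RA in TG and was not called.

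Nucleoside carriers that were called rose. Of 5 members, 3 rose in TG and 2 in WT, and 0 fell, with median differences of 0.32 in each. Of all tested genes 19.7% rose in TG and 6.67% in WT. With upper-quartile scaling 1 nucleoside carrier rose in WT. The surface carrier Slc29a1 went from 53.8 and 49.99 to 64.5 and 65.4 FPKM in WT, from 62.7 and 51.5 to 68.2 and 65.2 in KO-labelled, and from 47.9 and 49.3 to 61.1 and 60.7 in TG, with no overlap between doses. It rose by 0.32 ± 0.08 in both WT and TG (limma adjusted p = 0.0447 and 0.0147), and the TG call was lost without any 1 of the 4 TG libraries (0.30 to 0.34). Slc29a3, the lysosomal nucleoside carrier (chr10:60712072-60752794), went from 5.80 and 6.14 to 8.44 and 7.74 FPKM in WT and from 5.48 and 5.18 to 11.9 and 11.4 in TG. The rises were 0.38 ± 0.07 and 1.00 ± 0.07 (limma adjusted p = 0.0141 and 1.69e-05), with 0.04 in the KO-labelled cells.

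Slc43a3, a purine nucleobase carrier, went from 24.3 and 25.9 to 44.4 and 52.6 FPKM in TG (0.92 ± 0.17, limma adjusted p = 0.00348) and was not called in WT (0.34). Its replicate 2 was above replicate 1 in all 6 groups, as was the class II marker sum, whose part was not tested. This held for 10 members, 6.41%, and for 7.59% of all tested genes. Slc28a2, which concentrates purine nucleosides, and Slc29a2 were not called. Among 11 listed genes of nucleoside salvage 3 rose and 4 fell in TG. Hprt and Aprt, which salvage purine bases, fell, and the mitochondrial thymidine kinase Tk2 rose.

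Carriers of inorganic ions held the member called in all 3 genotypes. Of 20, 8 rose and 5 fell in TG and 1 rose in WT, beside 19.7%, 19.4% and 6.67% of all tested genes. Slc12a4, which moves potassium and chloride out of the cell together, went from 14.5 and 15.0 to 26.4 and 26.9 FPKM in WT. The KO-labelled libraries went from 14.9 and 13.9 to 19.5 and 22.03, and TG from 14.1 and 13.7 to 34.3 and 37.4. The 6 libraries without RA lay within 13.7 to 15.0 FPKM and every library with RA lay above them. The rises were 0.81, 0.50 and 1.31, each ± 0.07 (limma adjusted p = 0.000596, 0.043 and 2.43e-06). The KO-labelled call was lost without any 1 of its 4 libraries (0.41 to 0.58).

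Slc4a7, which brings bicarbonate in with sodium, went from 9.08 and 8.50 to 19.8 and 22.2 FPKM in TG (1.17 ± 0.07, limma adjusted p = 8.52e-06) and from 11.1 and 11.7 to 13.3 and 14.7 in WT, where it was not called (0.27). The sulfate carrier Slc26a2 rose by 0.78 in TG, from 4.42 and 3.88 to 7.50 and 8.19 FPKM. Slc4a11 fell from 12.6 and 14.6 to 4.81 and 5.81 FPKM in TG (-1.21 ± 0.23, limma adjusted p = 0.00315). In WT it read 9.65 and 12.7 without and 7.12 and 11.6 with RA, groups that overlapped, and its replicate 2 was the higher library in all 6 groups.

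Mitochondrial and related carriers of the Slc25 family rose in 8 and fell in 6 of 36 in TG and rose in 4 in WT. In TG 39.1% of all tested genes were called, 19.7% as rises and 19.4% as falls, and 6.67% rose in WT. Slc25a51, which carries NAD+ into mitochondria (chr4:45395923-45408766), rose in WT and TG. It went from 10.96 and 10.5 to 20.5 and 20.3 FPKM in WT, from 14.5 and 13.6 to 18.4 and 18.1 in KO-labelled, and from 9.67 and 9.32 to 23.7 and 22.2 in TG. In each genotype both RA libraries were above both others. The rises were 0.87 in WT and 1.19 in TG, each ± 0.05 (limma adjusted p = 0.00017 and 1.14e-06), and the KO-labelled difference of 0.35 had a limma adjusted p of 0.0581. The peroxisomal carrier Slc25a17 rose in WT and TG by 0.25 and 0.41, and Slc25a40 by 0.47 and 0.75. The abundant carriers Slc25a5 and Slc25a4 fell in TG, by 0.29 and 0.33, from 201 and 208 to 176 and 159 FPKM and from 129 and 145 to 109 and 108.

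Vitamin, haem and choline carriers rose in 3 and fell in 3 of 9 in TG and rose in 2 in WT. The shares of all tested genes were 19.7%, 19.4% and 6.67%. The choline carrier Slc44a2 went from 26.6 and 25.0 to 39.7 and 33.5 FPKM in WT, from 33.2 and 30.1 to 38.8 and 38.0 in KO-labelled, and from 19.9 and 18.5 to 47.9 and 45.8 in TG. It rose by 0.48 in WT and 1.24 in TG, each ± 0.08 (limma adjusted p = 0.00983 and 1.15e-05). The folate carriers parted in TG. Slc46a1 rose by 1.13 from 1.04 and 1.16 to 3.88 and 3.30 FPKM, while Slc19a1 fell by 0.40 from 26.9 and 27.6 to 20.8 and 20.1. The haem carrier Slc48a1 rose in WT and TG by 0.40 and 0.59. The thiamine carrier Slc19a2 and the biotin carrier Slc5a6 fell in TG by 0.39 and 0.28, and both calls were lost without any 1 TG library (-0.33 to -0.46 and -0.25 to -0.30).

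The remaining members were called less evenly. The urea carrier Slc14a1 rose from 0.499 and 0.480 to 1.22 and 1.11 FPKM in WT and from 0.406 and 0.412 to 1.22 and 1.09 in TG. It reached 1 FPKM only in these 4 libraries with RA, so its rises were favoured by the filter. Slc33a1, which brings acetyl-CoA into the endoplasmic reticulum, rose by 0.69 in TG from 12.5 and 14.5 to 20.6 and 24.2 FPKM, and the UDP-galactose carrier Slc35a2 fell by 0.35. The fatty acid carriers Slc27a3 and Slc27a4 rose by 0.65 and fell by 0.51 in TG. Among the 6 names that are no carriers, the scaffold gene Slc9a3r1 rose from 59.0 and 59.5 to 122 and 111 FPKM in TG and from 65.7 and 62.2 to 81.5 and 74.1 in WT. Slc4a1ap fell in both, and Slc7a6os and Slc36a3os fell in TG, Slc7a6os not without replicate 2 at 0 nM or replicate 1 at 10 nM (-0.26 each). The pseudogene Slc39a1-ps read 0.111 to 3.74 FPKM with libraries of one group far apart, and reads from its parent gene Slc39a1 cannot be told from its own. The strand setting of the counting is not given, so the opposite-strand genes Slc7a6os and Slc36a3os cannot be told from their partners.

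**Figure D4:**
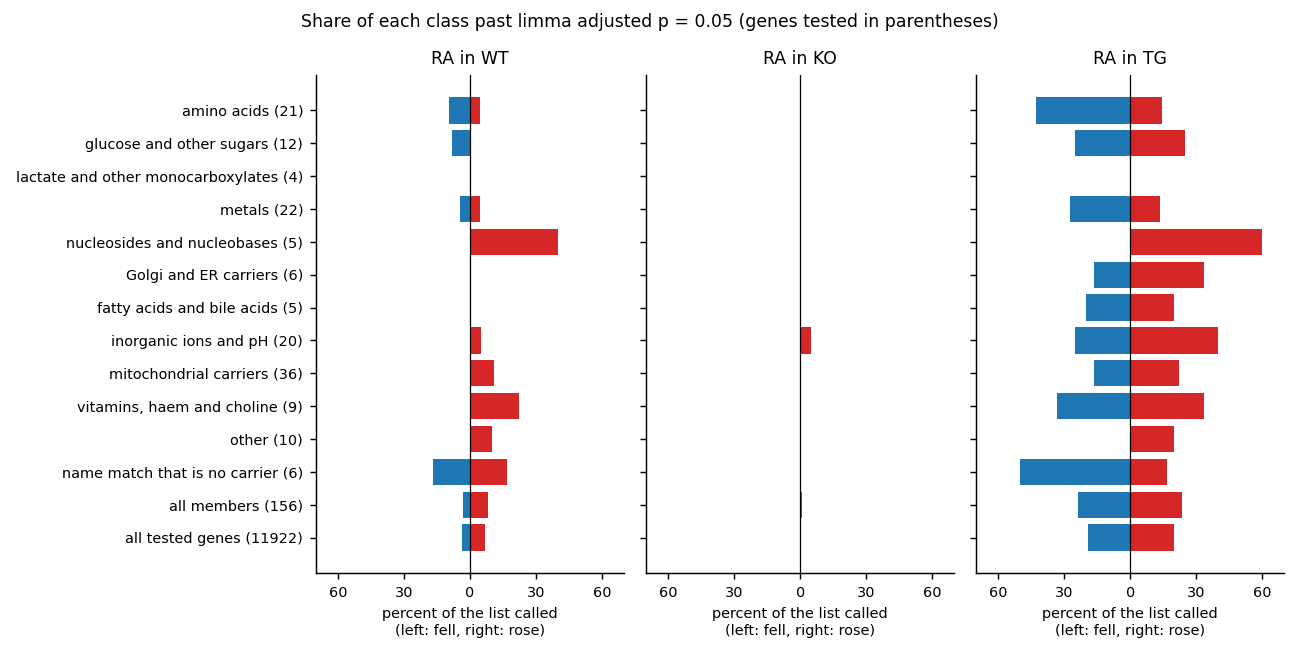
Percent of each class past the limma threshold with RA in WT, KO-labelled and TG (horizontal axes; left bars fell, right bars rose), with the genes tested per class in parentheses, beside all members and all tested genes. Nucleoside carriers have bars to the right alone, lactate carriers have none, and amino-acid carriers reach further left than right in TG.

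Genotype effects without RA were few. KO-labelled against WT at 0 nM called 3 members, all higher, 1.92% of 156 where 1.74% of all genes were called (1.16% higher and 0.579% lower). Among them were Slc25a51 (10.96 and 10.5 FPKM in WT, 14.5 and 13.6 in KO-labelled) and Slc43a2 (4.43 and 3.84 in WT, 6.69 and 5.90 in KO-labelled), with differences of 0.36 and 0.51 (limma adjusted p = 0.0144 and 0.0305). At 10 nM 1 member was called, higher in KO-labelled, where 0.881% of all genes were called (0.47% higher and 0.411% lower). With 1 library left out, Slc25a51 (0.32 to 0.41) and Slc43a2 (0.42 to 0.59) at 0 nM were not called without any 1 of the 4 libraries, and 0 to 1 members were called in each of these fits. At 10 nM 0 members were called without any 1 of the 4.

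TG against WT without RA called 4 members higher and 5 lower, 5.77% of 156, where 4.31% of all genes were called (2.25% higher and 2.06% lower). The zinc carrier Slc39a4 was higher (5.32 and 5.81 FPKM in WT, 9.41 and 8.45 in TG), as were Slc7a3 and Slc22a17. The other one higher was Slc7a4, which passed the filter only through untreated TG and had to differ there, so its call supports nothing and 3 others were higher. Slc2a3 was lower (4.57 and 4.89 in WT, 3.12 and 2.91 in TG), as were Slc43a2, Slc30a4, Slc44a2 and Slc4a7. The differences ran from -0.51 to 1.06. None of the 9 was called in every fit with 1 library left out, and 0 to 3 were called in each of these fits.

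With RA, TG against WT called 18 members higher and 9 lower, 17.3% of 156, where 11.5% of all genes were called (6.84% higher and 4.64% lower). The largest differences among those higher were in Slc2a6 (2.06 and 3.42 FPKM in WT, 5.45 and 6.49 in TG), Slc45a4, Slc15a2, Slc25a24 and Slc46a1, at 0.92, 0.88, 0.86, 0.73 and 0.70. Slc2a6 was not called without WT replicate 1 (0.65) or either TG library (1.03 and 0.81), nor Slc15a2 without any 1 of the 4 libraries (0.74 to 0.99), nor Slc25a24 without TG replicate 1 (0.62). Lower in TG were Slc19a2 (16.3 and 21.9 FPKM in WT, 11.8 and 10.7 in TG, -0.70), Slc2a3 (4.11 and 4.70 in WT, 2.64 and 2.44 in TG, -0.61) and Slc19a1 (-0.36). Slc19a2 was not called without WT replicate 2 (-0.50) or TG replicate 2 (-0.63), nor Slc19a1 without WT replicate 2 (-0.31) or TG replicate 2 (-0.33). With TG replicate 2 left out 9 members were called, with TG replicate 1 left out 13, without WT replicate 1 19 and without WT replicate 2 17.

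Only 3 members were lower in TG without RA and higher with RA, each called at both doses. Slc43a2 was at -0.47 and 0.41, Slc44a2 at -0.41 and 0.35 and Slc4a7 at -0.34 and 0.55, TG minus WT at 0 and 10 nM. Slc2a3 (-0.51 and -0.61) and Slc30a4 (-0.38 and -0.29) were lower at both doses, and Slc39a4 (0.60 and 0.57) was higher at both. At 10 nM Slc4a7 and Slc2a3 were called whichever library was left out, whereas Slc43a2 was not called without any 1 of the 4 (0.38 to 0.44). Slc44a2 was not called without WT replicate 2 (0.23) or either TG library (0.32 and 0.38), Slc30a4 without WT replicate 1 (-0.21) or either TG library (-0.35 and -0.24), and Slc39a4 without TG replicate 1 (0.48).

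The RA effect itself differed between TG and WT in 14 members, 8.97% of 156, where 7.48% of all genes were called (4.75% higher and 2.73% lower). In 10 the effect was higher in TG and in 4 it was lower. The largest differences of the effects were in Slc4a7 (0.89 ± 0.11, limma adjusted p = 0.00187), Slc43a2 (0.88 ± 0.12, limma adjusted p = 0.00435), Slc46a1 and Slc44a2 (0.76 each) and Slc45a4 (0.69). Slc9a3r1 followed at 0.68, Slc26a2 at 0.64, Slc29a3 at 0.62, Slc12a4 at 0.49 and Slc25a51 at 0.32. The effect was lower in Slc19a1 (-0.42), Slc11a2 (-0.41), Slc27a4 (-0.41) and the glutamine carrier homologue Slc38a10 (-0.27). In 12 of the 14 the effect had the same sign in both genotypes and was larger in TG. The other two were Slc38a10 and Slc19a1, at 0.14 and 0.02 in WT and -0.12 and -0.40 in TG. With 1 library left out, 7 of the 14 were called each time, namely Slc4a7, Slc43a2, Slc44a2, Slc45a4, Slc9a3r1, Slc26a2 and Slc29a3. Slc46a1 was not called without 4 of the 8 libraries (0.67 to 0.77), Slc12a4 without 6 (0.43 to 0.51), Slc11a2 without 6 (-0.36 to -0.42), Slc19a1 without 6 (-0.35 to -0.44), and Slc25a51, Slc27a4 and Slc38a10 without any of the 8.

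**Figure D5:**
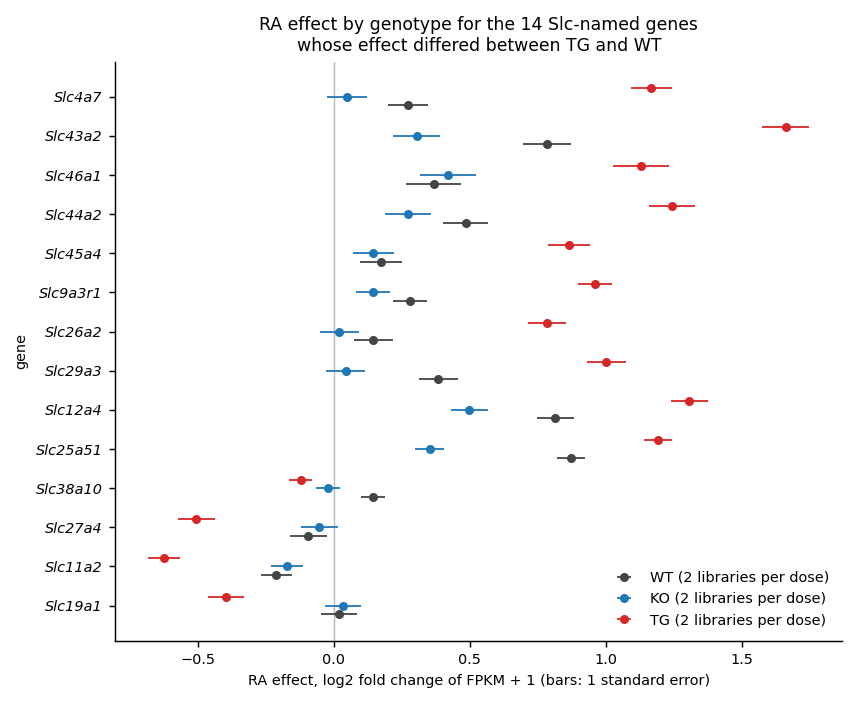
RA effect as log2 fold change of FPKM + 1 (points, with 1 standard error as bars) in WT, KO-labelled and TG for the 14 members whose effect differed between TG and WT. In 12 genes the TG point lies further from 0 than the WT point on the same side, and the KO-labelled points lie between -0.17 and 0.50.

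The RA effect in the KO-labelled cells differed from that in WT in 0 members by limma, where 0.00839% of all genes were called, and 0 by limma voom on recovered reads. At an unadjusted p under 0.05 were 9 of 156 members and 640 of 11922 tested genes. Side by side, the RA effects in WT and in the KO-labelled cells were 0.87 and 0.35 for Slc25a51, 0.78 and 0.30 for Slc43a2, 0.81 and 0.50 for Slc12a4, and -0.41 and -0.18 for Slc7a5.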

How the data were processed

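RNA-seq of 12 libraries was deposited as 1 table of FPKM per gene. Per the submitters' processing notes, Trimmomatic 0.32, STAR, HTSeq 0.6.1 and DESeq2 were named with builds GRCm38.p5 and mm10; what each did, the annotation and the strand setting are not given in the sources read for this work. FPKM was computed by the authors. Gene lengths and positions came from GENCODE M21 on GRCm38. Low values were whole multiples of a step: 95.3% to 95.9% of values up to 20 reads lay within 0.02 of a whole number, and reads were recovered for an added test. Depth limits counting error only, since reads are not independent molecules. 2 symbols turned into dates by a spreadsheet were restored. Every value column of the table matched a sample label.

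Groups followed the labels. log2(FPKM + 1) of the 11922 genes with FPKM at least 1 in at least 2 libraries was fitted in R 4.3.3 with limma 3.58.1 (6 group means, trended variance, 6 residual and 2.51 prior degrees of freedom), with p-values adjusted by Benjamini and Hochberg over all tested genes per comparison and a threshold of 0.05. A fold change on this scale understates low genes. There were 9 comparisons: RA within each genotype, the KO-labelled and the TG cells against WT without and with RA, and the RA effect in each compared with that in WT. Alternatives were a pseudocount of 0.1, no filter, upper-quartile scaling, only the libraries compared, a replicate block and each library left out. Voom on recovered reads (limma, library sizes as summed reads, 11910 genes) was added after seeing the data.

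Members, classes and pathway lists were chosen with earlier results of these data known. Named genes were, per comparison, up to 8 rises and 8 falls among called members with no overlap between groups and a mean of at least 2 FPKM in a group, up to 4 per class, and 24 set transporters, 79 members in all; others were named after their values were seen, for level, filter edge, promoter or completeness. Some genes are counted but not reported here by name. Data were simulated for RA in WT (11910 genes) with an overdispersion of 0.02, which was set and not estimated from the libraries. In them the test called 4 of 67 genes changed 1.5-fold, 35 of 67 changed 2-fold, 65 of 66 changed 4-fold and 2 of 11710 unchanged.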

Additional observations from a re-analysis of the deposited data

Results flagged for a closer look

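The RA effect differed between TG and WT in 14 members by limma's test of the difference itself, TG minus WT, on the log2 scale of FPKM + 1. Values above 0 were 0.89 for Slc4a7, 0.68 for Slc9a3r1, 0.88 for Slc43a2, 0.76 for Slc44a2, 0.64 for Slc26a2, 0.69 for Slc45a4, 0.62 for Slc29a3, 0.76 for Slc46a1, 0.49 for Slc12a4 and 0.32 for Slc25a51. Values below 0 were -0.41 for Slc11a2, -0.42 for Slc19a1, -0.27 for Slc38a10 and -0.41 for Slc27a4. The sex of the libraries and Rara itself also differed between TG and WT. The B-cell marker sum of TG lay within the WT libraries at 0 nM (32.3 and 35.2 against 29.98 and 105 FPKM). The same held at 10 nM (112 and 111 against 57.8 and 136 FPKM). The part of sex, Rara and the B-cell markers in these differences was not tested.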

How the results depend on the processing

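No difference of a called member changed sign under the alternatives tried. Class medians near 0 did. That of the metal carriers in WT went from 0.01 to -0.01 with upper-quartile scaling, and in TG from 0.02 to -0.03 and -0.05 without TG 0 nM replicate 2 or TG 10 nM replicate 1. That of the amino-acid carriers in WT went from 0.06 to -0.0031 and -0.0012 without WT 0 nM replicate 1 or WT 10 nM replicate 2. That of the lactate carriers in WT went from -0.08 to 0.0085 without WT 10 nM replicate 1. Members called with RA in WT, 18, became 11 with no filter and 2 with only the libraries compared, and 4 to 15 with 1 library left out. The 1 call with RA in KO-labelled became 0 with a pseudocount of 0.1, no filter, upper-quartile scaling, only the libraries compared or 1 library left out. With RA in TG, 52 to 62 of 74 were called with 1 library left out. KO-labelled against WT at 0 nM went from 3 to 0 with only the libraries compared and 0 to 1 with 1 left out, and at 10 nM from 1 to 0 in both cases. TG against WT at 0 nM went from 9 to 2 with no filter, 0 with only the libraries compared and 0 to 3 with 1 left out. At 10 nM it went from 27 to 4 and 9 to 19. The difference of RA effects, TG minus WT, was called in 7 to 14 members with 1 left out, against 14. Calls over all genes moved too. With RA in WT the 795 rises and 414 falls became 530 and 280 of 25908 genes with no filter. With only the libraries compared they became 106 and 36 of 11922. That setting gave 21 and 26 for TG against WT at 0 nM and 329 and 93 at 10 nM. Fits on only the libraries compared have fewer samples and fits without a filter test more genes. The cause of the other changes was not tested. A lone library left in a group is assumed to vary like the others.

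Replicate numbers pair no libraries by any label, and the main tests use no pairing. Yet the class II marker sums of replicates 1 and 2 in WT were 23.7 and 157 FPKM at 0 nM and 26.0 and 165 at 10 nM. In KO-labelled they were 26.5 and 73.2, then 25.5 and 78.3, and in TG 27.5 and 43.8, then 32.1 and 42.9. The replicate block below was a single shift shared by all genotypes, so it does not describe pairs within a genotype. The correlations of replicate differences between groups were 0.0035 to 0.327, and between the doses of a genotype they were 0.327 in WT, 0.3197 in KO-labelled and 0.147 in TG, where replicate 1 was male and replicate 2 female at both doses. With a replicate block 23 members were called with RA in WT, with Slc3a2, Slc11a2 and Slc43a3 added among the named genes, and 3 nucleoside carriers rose in WT and 4 in TG. Of all 11922 tested genes 1111 rose and 578 fell in WT with the block, and 2550 rose and 2665 fell in TG. With it 2 members were called with RA in KO-labelled, 5 in KO-labelled against WT at 0 nM, 15 in TG against WT at 0 nM, 86 with RA in TG and 21 in the difference of RA effects. Over all tested genes the rises and falls were 60 and 13 with RA in KO-labelled, and 741 and 507 in the difference of RA effects. They were 319 and 160 in KO-labelled against WT and 409 and 414 in TG against WT, both at 0 nM.

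Among results for single named genes, 509 kept their side of the threshold with 1 library left out, 221 fell below it and 2 rose past it. With 2 libraries a group, changes of 1.5-fold were mostly not called in data simulated with an overdispersion of 0.02. Smaller differences were called in the libraries themselves, such as 0.35 for Slc41a1 and 0.25 for Slc25a17 with RA in WT. The simulation therefore gives no detection limit for these data.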
